A study of Mus musculus with 2 samples.

Results

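Marginal zone-like B cells were examined in single-cell RNA sequencing of mouse spleen, in 2 libraries that were sorted for CD4+ Foxp3+ regulatory T (Treg) cells and that also held B cells. The members were chosen by their own counts: at least 500 detected genes, at most 10% mitochondrial counts, Cd79a plus Cd79b at 4 unique molecular identifiers (UMIs, counted transcript molecules) or more, Cd3d plus Cd3e plus Cd3g at 1 or fewer, Jchain under 20, no UMI of Fcer2a and at least 2 of Cr2. This gave 219 cells of the 16424 barcodes past the gene and mitochondrial filters, 67 in the Kmt2d+/+ library and 152 in the Kmt2dfl/fl library. B cells are here all cells that meet the rule before its Fcer2a and Cr2 terms, 505 and 1248 cells.

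Each genotype is 1 library of Treg cells pooled from 3 mice: Foxp3YFP-Cre Kmt2d+/+ (written +/+ below) and Foxp3YFP-Cre Kmt2dfl/fl (fl/fl). The mice of both groups carry the Cre recombinase fused to yellow fluorescent protein at the Foxp3 gene, so recombination of the floxed Kmt2d gene is directed to cells that use Foxp3, and the labels do not say which exons are flanked by loxP sites. Age, sex and strain were not given in the sources used here. With 1 library per genotype no test between genotypes is possible: values compare these libraries, not the conditions, and every interval below is a 95% interval for counting error only.

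The libraries held 7947 and 8784 barcodes at a median of 5562 and 6039.5 UMIs. They differed in RNA of other blood cells. Over T cells, defined by at least 3 Cd3 UMIs and no Cd79 UMI, the 7 neutrophil genes searched summed to 1601 CPM (counts per 1000000 UMIs) in the +/+ library and to 228 CPM in the fl/fl library. The 15 barcodes that both libraries shared included 0 of the members of either.

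Marginal zone B cells sit at the border of the splenic white pulp, where they meet blood-borne antigens, and respond fast with IgM. Their fate depends on Notch2 signalling through the transcription factor RBPJ, and they carry much complement receptor 2 (CD21, from Cr2) and CD1d and little IgD and CD23 (the low-affinity IgE receptor, from Fcer2a). Follicular B cells, the recirculating majority, show the opposite pattern for CD23 and IgD. KMT2D is a histone H3 lysine 4 methyltransferase of enhancers, and P2X7, named in the series title, is an ATP-gated channel encoded by P2rx7.

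Because Notch2 acts through RBPJ, promoters (250 bases before to 50 after the start of transcription, from RefSeq, build GRCm38.p6) were searched on both strands for the RBPJ core GTGGGAA. It was in 2097 of 32851 promoters (6.38%), which belonged to 1958 of 27025 genes (7.25%). Of the 20 genes on a list of marginal zone B cell genes, 14 matched the promoter table by symbol, and 2 held the core: Cr2, whose count is part of the rule, and Cd9, a tetraspanin of marginal zone B cells. Dtx1, which encodes a regulator of Notch signalling and is a known Notch target, held none in this window. The 3 promoters are shown because these genes carry much of what follows: Cr2 at chr1:195176670-195176969, Cd9 at chr6:125494711-125495010 and Dtx1 at chr5:120711620-120711919, all on the minus strand, with the core in capitals.
Cr2: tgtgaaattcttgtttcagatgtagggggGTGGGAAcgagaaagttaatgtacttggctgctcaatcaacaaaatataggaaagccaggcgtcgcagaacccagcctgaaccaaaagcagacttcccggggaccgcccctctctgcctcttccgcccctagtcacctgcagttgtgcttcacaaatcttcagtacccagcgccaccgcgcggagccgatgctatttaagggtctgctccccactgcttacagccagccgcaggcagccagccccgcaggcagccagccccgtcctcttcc
Cd9: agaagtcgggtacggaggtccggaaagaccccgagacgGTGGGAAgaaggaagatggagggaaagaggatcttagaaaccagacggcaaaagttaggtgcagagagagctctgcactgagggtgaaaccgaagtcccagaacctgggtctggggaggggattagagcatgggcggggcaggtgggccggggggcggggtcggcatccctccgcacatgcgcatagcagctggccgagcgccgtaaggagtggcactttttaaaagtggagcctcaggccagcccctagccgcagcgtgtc
Dtx1: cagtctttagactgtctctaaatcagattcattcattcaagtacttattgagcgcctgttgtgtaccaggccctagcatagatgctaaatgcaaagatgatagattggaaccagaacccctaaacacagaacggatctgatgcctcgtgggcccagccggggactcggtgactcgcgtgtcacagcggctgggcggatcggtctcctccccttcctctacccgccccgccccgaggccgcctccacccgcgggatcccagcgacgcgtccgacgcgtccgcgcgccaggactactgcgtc
The decamer NF-kB consensus (0.155% of all promoters) and the cyclic AMP response element TGACGTCA (1.79%) were in 0 of the 14 matched genes.

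Members made up 13.3% of B cells in +/+ (67 of 505, interval 10.4 to 16.5%) and 12.2% in fl/fl (152 of 1248, 10.4 to 14.1%), shares whose intervals overlap. As a share of all filtered barcodes they were at 0.860% (0.667 to 1.09%) and 1.76% (1.49 to 2.06%), while all B cells were at 6.48% and 14.5%. In a sort for Treg cells these second shares count B cells carried along with the sorted cells. The members held 609426 and 1387566 UMIs in all, with a median per cell of 8493 (2539 to 22148) in +/+ and 7296 (2708 to 49208) in fl/fl.

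The rule leans on depth. Members were 3.73% of B cells under 4000 UMIs, 11.1% of those from 4000 to under 8000 and 29.1% of those with 8000 or more in +/+, and 2.12%, 14.5% and 30.5% in fl/fl. An Fcer2a count of 0 can also be a missed transcript: after every cell was thinned to 2000 UMIs, 48.1% of the +/+ and 47.0% of the fl/fl cells with Fcer2a and 2 or more Cr2 UMIs still had an Fcer2a UMI. Just outside the rule lay 44 and 116 cells with 1 Cr2 UMI and no Fcer2a, and 29 and 54 cells with 1 Fcer2a UMI and at least 2 of Cr2. Doublet calling marked 0 members in +/+ and 1 in fl/fl.

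Cr2 (ENSMUSG00000026616, GRCm38 chromosome 1, 195136811 to 195176716, minus strand) chose the cells and is given as a description. Its count per member ran from 2 to 27 with a median of 5 in +/+, and from 2 to 36 with a median of 3.5 in fl/fl. The members were compared with the B cells nearest to them by rule, those with 2 or more Cr2 UMIs that also had an Fcer2a UMI (77 and 115 cells, median 6785 and 5978 UMIs, called CD23+ Cr2+ below). Since both sets were cut from the same counts, the ratios between them are a description with no test.

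Several genes of marginal zone B cells other than Cr2 were higher in members in both libraries. Ackr3 (ENSMUSG00000044337, chromosome 1, 90203980 to 90216751, plus strand), a scavenging receptor for the chemokine CXCL12, reached 179 CPM in +/+ members and 134 CPM in fl/fl members. In CD23+ Cr2+ cells it was at 17.1 and 17.3 CPM, which put members higher by 3.39 (2.52 to 4.38) and 2.95 (2.24 to 3.76) on the log2 scale. Fcrl5 (ENSMUSG00000048031, chromosome 3, 87435773 to 87500678, plus strand), an Fc receptor-like inhibitory receptor, was at 200.2 and 133 CPM against 69.8 and 61.1 CPM (log2 1.52, 1.03 to 2.03, and 1.12, 0.69 to 1.56). Ackr3 thus set members apart more than Fcrl5 did, and it kept log2 ratios of 3.59 and 3.26 after thinning. Fcrl5 was then at 1.504 in fl/fl and 0.42 in +/+.

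Other markers pointed the same way. Cd1d1, which encodes the lipid-presenting molecule CD1d, was at 118 CPM in +/+ members and 100.2 CPM in fl/fl members, with log2 ratios over CD23+ Cr2+ cells of 1.73 and 1.45. Cd9 was at 222 and 139.8 CPM (log2 1.58 and 1.78) and Dtx1 at 281 and 208 CPM (log2 1.32 and 1.39). Myof, encoding the membrane-repair protein myoferlin, was at 169 and 100.2 CPM (log2 2.03 and 2.04), and Plac8 at 1739 and 2273 CPM (log2 1.02 and 0.88). The scavenger receptor gene Cd36 (log2 0.45 and 1.40) and Marcks, a protein kinase C substrate gene (log2 1.63 and 0.53), were less even between the libraries. Over the marginal zone list, 7 of 14 measured genes were at least 1.5-fold higher in members in both libraries with intervals that left out no difference, and 0 were lower, while 1.72% of 3261 measured genes were higher in both. The list medians were 1.17 and 1.00 on the log2 scale, beside -0.05 and -0.08 over all measured genes. Not higher in both by this rule were Cr2, Cd36, Marcks, Notch2, Zbtb20, Cd24a and Tm6sf1. After thinning, Notch2 had a UMI in 35.8% of +/+ members beside 33.8% of CD23+ Cr2+ cells, and in 39.5% beside 26.1% in fl/fl. For Zbtb20 these shares were 61.2% beside 58.4% in +/+ and 65.1% beside 67.0% in fl/fl.

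**Figure D1:**
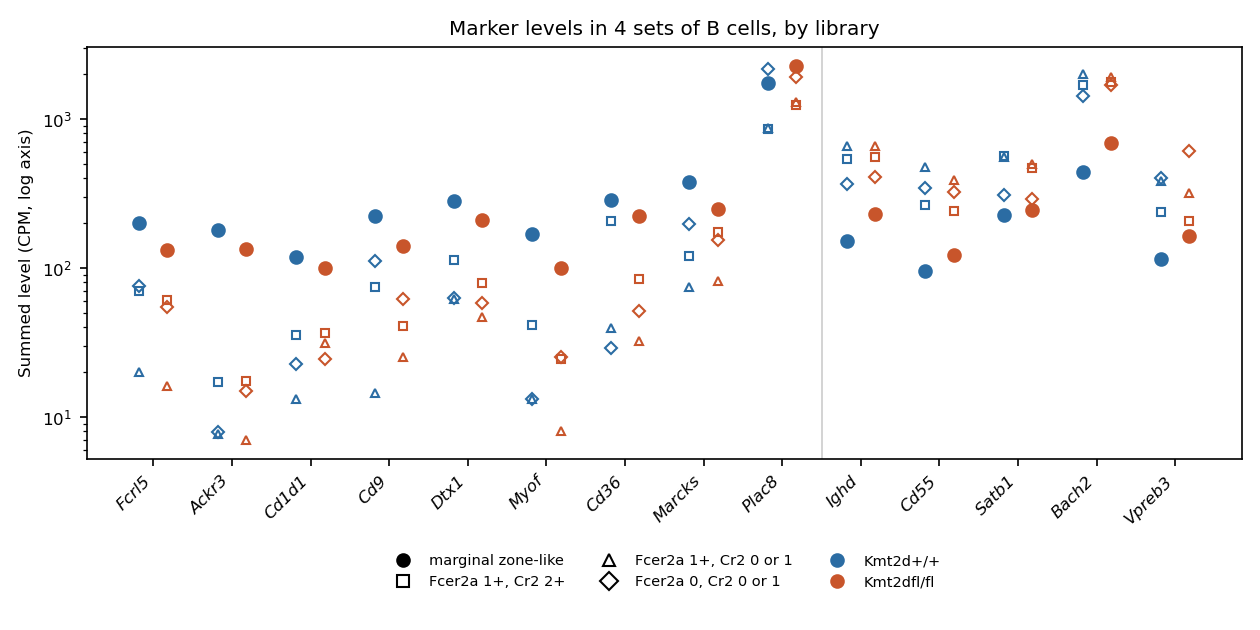
Summed level in CPM (log axis) of 14 genes in 4 sets of B cells, with 1 symbol per set and library, filled for marginal zone-like cells and open for the others, blue for Kmt2d+/+ and orange for Kmt2dfl/fl. Ackr3, at 179 and 134 CPM in marginal zone-like cells, lies far above its open symbols, and Ighd, Cd55 and Bach2 lie below theirs.

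Genes outside that list also stood out. By the smaller of the 2 libraries' ratios, those at the top included Atf3, a stress-response transcription factor gene (179 and 213 CPM, log2 1.97 and 2.12), and Rgs10, a regulator of G protein signalling (131 and 101 CPM, log2 1.88 and 2.72). Mfhas1 (log2 1.68 and 1.99), Dph5 of diphthamide synthesis (1.59 and 1.51) and Pik3r4, a subunit of the class III PI3-kinase (1.54 and 1.32), followed. Ahr, the aryl hydrocarbon receptor, was at 222 and 141 CPM (log2 1.17 and 1.33), Zc3h12c at 302 and 177 CPM (1.85 and 1.17), Trps1 at 443 and 239 CPM (1.16 and 1.00), and Il5ra, the interleukin-5 receptor chain, at 164 and 107 CPM (1.64 and 1.11). These genes were high against the same CD23+ Cr2+ cells in each library.

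Follicular genes were lower in members, with 8 of 13 measured list genes lower in both libraries beside 2.82% of all measured genes, although 1 of the 8, Fcer2a, is part of the rule. Ighd, the constant region of IgD, was at 151 and 231 CPM in members against 537 and 555 CPM in CD23+ Cr2+ cells (log2 -1.83 and -1.26). Cd55, which encodes a decay-accelerating complement regulator, was at 95.2 and 123 CPM against 266 and 241 CPM (-1.48 and -0.98). Satb1, a chromatin organiser gene, was at 226 and 243 CPM against 565 and 469 CPM (-1.32 and -0.95).

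Bach2, a transcriptional repressor that restrains plasma cell differentiation, was at 443 CPM in +/+ members and 693 CPM in fl/fl members, against 1685 and 1755 CPM in CD23+ Cr2+ cells (log2 -1.93 and -1.34). It was 1 of 2 of 26 measured B cell transcription factor genes that differed in both libraries, the other being Id2, which was higher in members. Alcam (-1.55 and -1.74), H2ax (-1.36 and -1.42), Fry (-1.99 and -1.33), Epb41 (-0.95 and -1.42), Pxdc1 (-0.97 and -1.15), Gimap4 (-1.07 and -0.95) and the inhibitory receptor gene Btla (-1.07 and -0.94) were also among the lowest log2 ratios. Of 25 measured B cell receptor signalling genes, 0 were higher and 1 (Rasgrp3) was lower in both libraries. Over all measured genes 1.72% were higher and 2.82% lower in both.

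The IgD share of immunoglobulin transcripts was lower in members than in CD23+ Cr2+ cells. Ighd made up 5.75% (4.66 to 7.001%) of Ighm plus Ighd UMIs in +/+ members and 9.69% (8.71 to 10.8%) in fl/fl members, beside 20.7% and 21.1% in CD23+ Cr2+ cells. In B cells with neither Fcer2a nor 2 Cr2 UMIs it was at 9.99% and 11.7%, so a low IgD share was not particular to members. Cells with more lambda than kappa light chain UMIs were 25.4% of +/+ members (17 lambda and 50 kappa, 15.5 to 37.5%) and 21.2% of fl/fl members (32 and 119, 14.97 to 28.6%), beside 11.8% (5.56 to 21.3%) and 12.3% (6.88 to 19.7%) of CD23+ Cr2+ cells, with overlapping intervals. In B cells with neither Fcer2a nor 2 Cr2 UMIs the lambda share was 24.0% and 24.4%, so it was not particular to members either. Cells dominated by a switched heavy chain numbered 0 and 2.

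Single members were uneven in these markers. Cells with an Fcrl5 UMI made up 58.2% of the +/+ members and 49.3% of the fl/fl members, with a highest count of 10 and 21 in a cell. T cells, which should lack the gene, had one in 0.287% and 0.0975%, at a median of 5564.5 and 6283 UMIs against 8493 and 7296 in members. Ackr3 was detected in 52.2% of +/+ members (39.7 to 64.6%) and 28.9% of fl/fl members (21.9 to 36.8%). It was found in 0 of 5932 and 0 of 6157 T cells, which by 3 counts over the cells allows shares of up to 0.0506% and 0.0487%. At 2000 UMIs per cell the Ackr3 shares were 16.4% and 15.8% and the Fcrl5 shares 16.4% and 25.0%.

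Of 9 marginal zone markers outside the rule (Fcrl5, Ackr3, Cd1d1, S1pr3, Cd9, Dtx1, Myof, Cd36 and Marcks), a +/+ member held a median of 6 and an fl/fl member 4, each from 0 to 9. At least 4 were present in 68.7% of +/+ members (46 of 67, 56.2 to 79.4%) and 56.6% of fl/fl members (86 of 152, 48.3 to 64.6%), and none in 3 and 20 cells. The share with at least 4 was 24.7% and 22.6% in CD23+ Cr2+ cells, and 10.9% and 8.90% in B cells with neither Fcer2a nor 2 Cr2 UMIs. With cells thinned to 2000 UMIs, 56.7% and 52.0% of members held at least 2 of the 9, beside 22.1% and 21.7% of CD23+ Cr2+ cells. By these 9 markers the marginal zone-like name held for the set. They leave out Notch2, Zbtb20, Cd24a and Tm6sf1, which were not higher in both libraries by the rule of size, and Plac8, which was. Of the genes counted here, the 3 and 20 cells without a marker had only Cr2 and the absence of Fcer2a in favour of the name.

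Ackr3, Fcrl5 and Cd1d1 were lower in members with 2 or 3 Cr2 UMIs than in those with 4 or more in both libraries. The same held for Cd9, Dtx1, Cd36, Marcks and, by little in +/+, Myof, while Plac8 went the other way in +/+. Over finer bands the rise was not always even. With 2, 3, 4 to 7 and 8 or more Cr2 UMIs there were 16, 9, 18 and 24 cells in +/+ and 43, 33, 42 and 34 in fl/fl, so that 37.3% (25.8 to 49.99%) and 50% (41.8 to 58.2%) of members held only 2 or 3, shares with overlapping intervals. Ackr3 was at 106, 126, 167 and 231 CPM over these bands in +/+ and at 55.7, 51.7, 80.7 and 297 CPM in fl/fl, and at 20.5 and 23.3 CPM in cells with 1 Cr2 UMI. Cd1d1 was at 57.9, 34.3, 107 and 175 CPM in +/+ and at 62.6, 58.6, 103 and 152 CPM in fl/fl. Myof was at 203, 114, 86.8 and 219.7 CPM in +/+, and there at 162 CPM with 2 or 3 Cr2 UMIs and 172 CPM with 4 or more. Plac8 was at 1937 CPM with 2 or 3 Cr2 UMIs and 1649 CPM with 4 or more in +/+, beside 1801 and 2609 CPM in fl/fl. Ackr3 in fl/fl was above +/+ in the last band and below it in the 3 others, with overlapping counting intervals in each.

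Ighd and Vpreb3, genes of follicular and of newly formed B cells, ran the other way from the first band to the last. Ighd was at 357, 137, 173 and 63.3 CPM in +/+ and at 442, 293, 214 and 58.0 CPM in fl/fl. Vpreb3, a surrogate light chain gene of immature and transitional B cells, was at 232, 240.1, 133 and 18.6 CPM in +/+ and at 226, 262, 146 and 67.7 CPM in fl/fl. A Vpreb3 UMI was present in 40.3% of +/+ and 46.1% of fl/fl members, 17.9% and 24.3% after thinning, beside 0.202% and 0.162% of T cells. Other genes of these lists followed less. The follicular gene Ccr7 was at 116, 22.9, 133 and 41.0 CPM in +/+ and at 66.1, 55.2, 93.3 and 33.9 CPM in fl/fl. Cd24a, on the transitional and marginal zone lists, was at 309, 332, 347 and 350 CPM in +/+ and at 330, 321, 396 and 322 CPM in fl/fl. Median UMIs per cell also climbed with the bands, from 5029.5 to 10291.5 in +/+ and from 5574 to 9925 in fl/fl. The part of depth in these gradients was not tested.

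**Figure D2:**
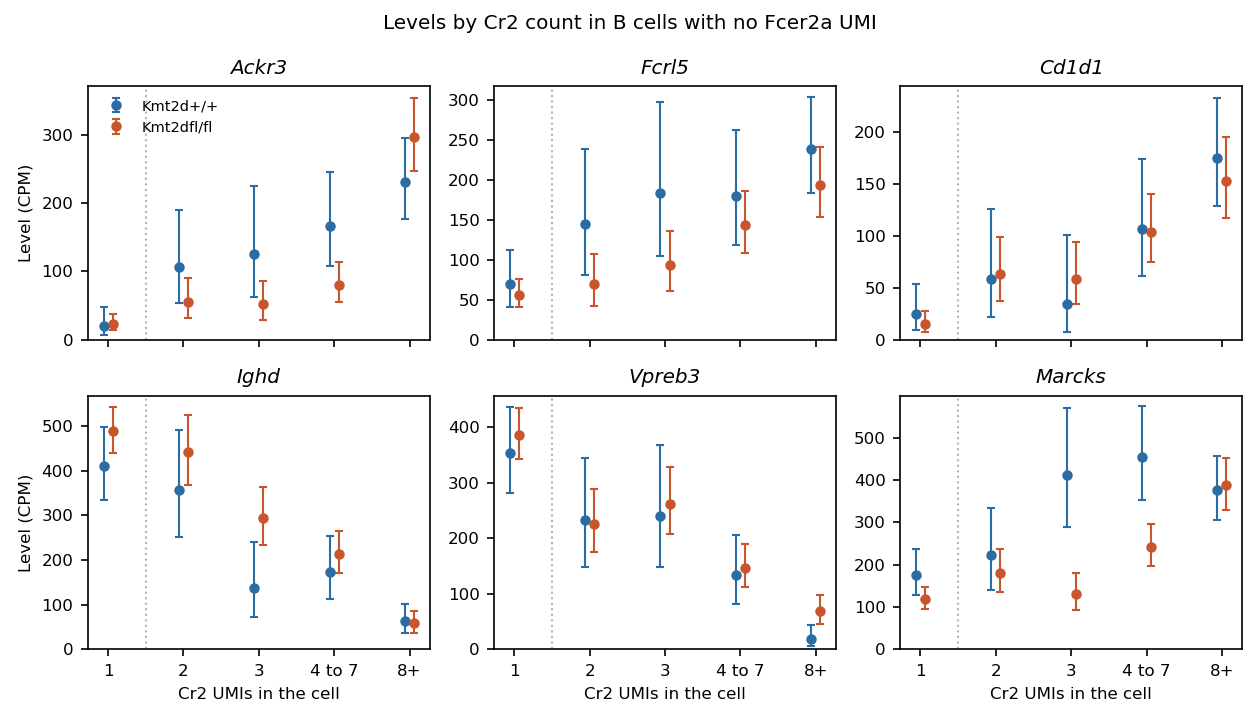
Level in CPM of 6 genes in B cells with no Fcer2a UMI, by the number of Cr2 UMIs in the cell, with bars for the 95% Poisson interval (counting error only) and a dotted line at the edge of the rule, blue for Kmt2d+/+ and orange for Kmt2dfl/fl. Ackr3 is highest and Ighd and Vpreb3 lowest in cells with 8 or more Cr2 UMIs, at 231 and 297 CPM for Ackr3.

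Members with no UMI of either Fcrl5 or Ackr3 numbered 21 in +/+ and 66 in fl/fl. They held 347 and 432 CPM of Ighd, beside 96.4 and 144 CPM in the 46 and 86 members with one, and 302 and 306 CPM of Vpreb3, beside 62.9 and 101 CPM. Their Cd9 was at 68.0 and 45.1 CPM, beside 264 and 181 CPM, and their Dtx1 at 189 and 99.6 CPM, beside 306 and 256 CPM. Their median depth was 4993 and 5404.5 UMIs, beside 9949.5 and 9284. The split itself sets Fcrl5 and Ackr3. Beyond these, members with a UMI held more Cd9 and Dtx1, and the shallower members without held more IgD and Vpreb3 transcript. The part of depth in this was not tested. Cells without either UMI made up 31.3% of +/+ members and 43.4% of fl/fl members, with overlapping intervals.

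Genes of other cell types were found at low summed levels in members, with several defining genes at 0. The Cd79, Cd3 and Jchain genes in the B, T and plasma cell lists are part of the rule, so the sums of these lists are in part set by it. B cell markers were all 10 present in both libraries, at 20093 and 17180 CPM. T cell markers summed to 34.5 CPM in +/+ (7 of 13 genes found, from 0 to 2 UMIs in a cell) and 59.8 CPM in fl/fl (10 of 13, 0 to 17), with Cd4 and Cd8b1 at 0 in both. Treg markers were at 202 and 212 CPM, most of it Capg and Ctla4, with Foxp3 at 0 in both. Plasma cell markers were at 95.2 and 91.5 CPM with Sdc1 and Tnfrsf17 at 0. Those of marginal zone macrophages, the neighbours of these B cells in the spleen, were at 0 and 0.721 CPM, with Marco and Cd209b at 0. Dendritic cell genes were at 133 and 128 CPM, with Xcr1, Clec9a and Siglech at 0, and stromal or endothelial genes at 231 and 218 CPM, with only Pecam1 found in +/+.

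A few members carried much RNA of another blood cell. Neutrophil genes summed to 528 CPM in +/+ members against 12.3 CPM in fl/fl members, with 6 of 7 genes found in each, and 164 of the 322 +/+ UMIs were in 1 cell. Monocyte and macrophage genes were at 322 and 236 CPM, with 117 of 196 and 127 of 328 UMIs in 1 cell each. Erythroid and platelet genes were at 11.5 and 353 CPM, with 467 of the 490 fl/fl UMIs in 1 cell, and natural killer cell genes at 19.7 and 61.3 CPM, with 71 of the 85 fl/fl UMIs in 1 cell. Members with 10 or more UMIs of any of these 4 lists were left out in an alternative set of 63 and 147 cells, used below beside the genes it touches.

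Kmt2d (ENSMUSG00000048154, chromosome 15, 98831669 to 98871204, minus strand) had 59.1 CPM in +/+ members (41.4 to 81.8) and 49.7 CPM in fl/fl members (38.7 to 62.9), a log2 ratio of fl/fl over +/+ of -0.25 (-0.85 to 0.38). In the other B cells, with many more UMIs, the ratio was -0.57. Since the floxed exons were not given and the reads come from the 3' ends of transcripts, this level does not check a deletion. Foxp3, whose locus drives the Cre, had a UMI in 0 of 67 and 0 of 152 members, which by 3 counts over the cells allows shares of cells with a UMI of up to 4.48% and 1.97%. Of the T cells in the same libraries 13.9% and 11.2% had a Foxp3 UMI. The T cell definition did not use Foxp3, so these shares do not tell missed transcripts from cells without them. A missing UMI alone does not show that a cell lacks the transcript. P2rx7 had 2 UMIs in each library, too few for a ratio.

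Between the libraries, 3500 genes were measured in members (at least 50 CPM in either). A gene was called where its CPM differed by at least 1.5-fold and the counting interval left out no difference, which is a rule of size and not a test. By this rule 8.89% of the measured genes were called: 80 (2.29%) higher and 231 (6.6%) lower in fl/fl, with a median log2 ratio of -0.08. Scaled by the median of the genes' ratios in place of total UMIs, 131 were higher and 164 lower, which lowered the share of lower calls from 74.3% to 55.6%. Without the members that held RNA of other blood cells 75 were higher and 175 lower. Among the other B cells of the same libraries, with more cells and UMIs, 2.72% of 3416 genes were called, 49 (1.43%) higher and 44 (1.29%) lower.

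**Figure D3:**
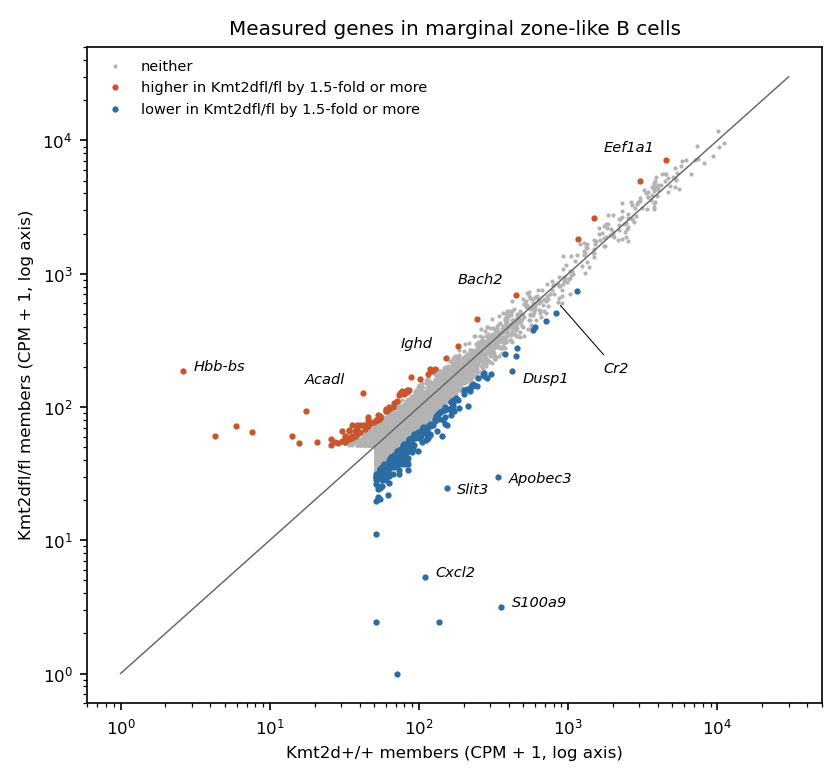
Level of each of the 3500 measured genes in marginal zone-like cells of the Kmt2d+/+ library (horizontal) and the Kmt2dfl/fl library (vertical), as CPM + 1 on log axes, with genes called higher in orange and lower in blue. The 231 lower genes lie mostly close to the limit, with Apobec3, Cxcl2 and S100a9 far below the diagonal and Hbb-bs far above it.

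The gene of the antiviral cytidine deaminase Apobec3 was lower in fl/fl in most cells. Apobec3 (ENSMUSG00000009585, chromosome 15, 79891659 to 79915906, plus strand) reached 338 CPM in +/+ members, against 28.8 CPM in fl/fl members, a log2 ratio of -3.55 (-4.08 to -3.06). It had a UMI in 61 of 67 +/+ members and 32 of 152 fl/fl members. The difference was not limited to these cells: the log2 ratio was -3.92 in the other B cells and -2.83 in T cells. On chromosome 15, which also holds Kmt2d, 11 of 133 measured genes were called (8.27%), a share near that of all genes. That share covers the whole chromosome and does not address a stretch near Kmt2d or a single gene. The source of the Apobec3 difference was not tested.

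The other large differences rested on few cells. S100a9, a neutrophil calprotectin gene, had 217 UMIs in +/+ members, 114 of them in 1 cell, and 3 in fl/fl members (log2 -7.36, -9.65 to -5.80). S100a8, its partner, had 82 UMIs, 41 of them in 1 cell, and 2 (log2 -6.54). Without the members holding RNA of other blood cells these ratios were -2.27 and -1.27, and in T cells they were -2.75 and -2.83. Cxcl2, a neutrophil-attracting chemokine gene, had 66 UMIs in 3 cells and 6 in 1 cell. Slit3 had 72 of its 93 +/+ UMIs in 1 cell (log2 -2.68). Hbb-bs, a beta-globin gene, had 1 UMI in +/+ and 257 in fl/fl, 255 of them in 1 cell (log2 6.82, 4.33 to 12.13). These values describe single barcodes more than the members at large.

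Dusp1, Egr1 and Tyrobp were lower in fl/fl members and depended in part on the members that held RNA of other blood cells. Dusp1, a phosphatase gene induced by acute signals that switches off MAP kinases, was at 422 CPM in +/+ members and 185 CPM in fl/fl members (log2 -1.19, -1.44 to -0.93), and at -0.73 without the members holding RNA of other blood cells. Egr1, an immediate-early transcription factor gene, was at 131 and 64.9 CPM (log2 -1.02), and at -0.42 without those members. Tyrobp, a myeloid and natural killer signalling adaptor gene, was at 154 and 72.8 CPM (log2 -1.08), and at -0.23 without them. Each of the 3 ratios was closer to 0 in the smaller set, and stayed below it.

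The remaining genes named by size were less tied to them. Dnase1l3, a secreted DNA-degrading nuclease gene, was at 143 and 59.1 CPM (log2 -1.27, -1.73 to -0.82), beside -0.46 in the other B cells. Cdk8, a kinase of the Mediator complex, was at 213 and 100.2 CPM (log2 -1.09), the transcriptional repressor gene Zhx2 at 148 and 73.5 CPM (-1.01) and the exocyst gene Exoc5 at 115 and 57.7 CPM (-0.99). Without the members holding RNA of other blood cells their log2 ratios were -1.06, -1.04, -1.11 and -1.11, and Zhx2 was at -0.52 after thinning.

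Of the genes with the highest ratios in fl/fl members, 5 were also at least 1.5-fold higher in the other B cells. Acadl, a mitochondrial fatty acid oxidation enzyme gene, was at 41.0 CPM in +/+ members and 127 CPM in fl/fl members (log2 1.63, 1.02 to 2.30), at 1.22 in the other B cells and at -0.96 in T cells. Tubb5, a beta-tubulin gene, was at 244 and 457 CPM (log2 0.90, 0.64 to 1.17, other B cells 0.68). Eef1a1, the translation elongation factor, was at 4514 and 7118 CPM (log2 0.66, 0.60 to 0.72), beside 0.61 in the other B cells and 0.54 in T cells. Irf2, an interferon regulatory factor gene, was at 181 and 286 CPM (log2 0.66, other B cells 0.83), and Hmgn2, a nucleosome-binding protein gene, at 87.0 and 167 CPM (0.94, other B cells 0.61). In members thinned to 2000 UMIs Hmgn2 was at 0.0406 and Irf2 at 0.40, both under the 1.5-fold limit.

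A second set was higher in fl/fl members, with log2 ratios from -0.47 to 0.31 in the other B cells. Serpinb1a, a protease inhibitor gene, was at 75.5 and 129.7 CPM (log2 0.78, other B cells -0.00), Rfx3 at 78.8 and 125 CPM (0.66, other B cells -0.00) and Ccdc50 at 72.2 and 123 CPM (0.76, other B cells 0.09). Cmah, which makes N-glycolylneuraminic acid, was at 82.0 and 133 CPM (0.70) in members and at -0.47 in the other B cells. Stk4, a Hippo pathway kinase gene, was at 100.1 and 161 CPM (0.69, other B cells 0.18, 0.48 after thinning), and Ppdpf at 73.8 and 125 CPM (0.76, other B cells 0.31). In +/+ members Serpinb1a, Rfx3 and Cmah were also below the CD23+ Cr2+ cells, at log2 ratios of -1.58, -0.91 and -1.89. With the rule applied to cells thinned to 2000 UMIs (at least 1 Cr2 UMI), their fl/fl over +/+ ratios turned to -0.0501, -0.0772 and -0.34.

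Bach2, Ighd and Gimap4 were also higher in fl/fl members than in +/+ members and close to level between the libraries in the other B cells. Bach2 was higher in fl/fl members (log2 0.65, 0.45 to 0.85) with 0.07 in the other B cells, and Ighd was higher (0.62, 0.28 to 0.97) with 0.00 in the other B cells. Gimap4, a lymphocyte GTPase gene, was at 70.6 and 110.3 CPM (0.64, other B cells 0.01). Of the 11 measured follicular genes 1 was higher, 0 were lower and 10 neither, with a median of 0.10 (other B cells -0.19). Over all measured genes 2.29% were higher and 6.6% lower. With members of 2 or 3 and of 4 or more Cr2 UMIs weighted alike in both libraries, the log2 ratios of Bach2 and Ighd were 0.52 and 0.48. Without the members holding RNA of other blood cells Bach2, Ighd and Gimap4 were at 0.53, 0.55 and 0.49, under the 1.5-fold limit, and Bach2 was at 0.37 after thinning. Vpreb3, at 115 and 164 CPM, was not called (0.51, 0.12 to 0.92).

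Of 14 measured marginal zone genes, 0 were higher and 4 lower in fl/fl members, beside 2.29% higher and 6.6% lower over all measured genes. The median log2 ratio was -0.38, beside -0.08 over all measured genes and -0.35 for the list in the other B cells. The lower genes were Myof (-0.75, -1.13 to -0.37), Cd9 (-0.66, -0.99 to -0.34), Fcrl5 (-0.59, -0.93 to -0.25) and Marcks (-0.59, -0.83 to -0.34). In the other B cells Myof was at -0.03, Cd9 at -0.56, Fcrl5 at -0.35 and Marcks at -0.03. Fcrl5 turned to 0.50 in members thinned to 2000 UMIs, and Marcks was at -0.32 without the members holding RNA of other blood cells and at 0.0087 with the rule on thinned cells. Not called were Ackr3 (-0.42, -0.76 to -0.06), Dtx1 (-0.43), Cr2 (-0.47, part of the rule), Cd36 (-0.35), Notch2 (-0.30), Cd1d1 (-0.24), Tm6sf1 (-0.07), Cd24a (0.02), Zbtb20 (0.20) and Plac8 (0.39). Among members with 4 or more Cr2 UMIs, Myof was at -0.52, Cd9 at -0.40, Fcrl5 at -0.36, Marcks at -0.35 and Ackr3 at -0.12, all closer to 0. With the bands of 2 or 3 and of 4 or more Cr2 UMIs weighted alike in both libraries, they were about as in all members, Myof at -0.80, Cd9 at -0.68, Fcrl5 and Marcks at -0.60 and Ackr3 at -0.40. In members thinned to 2000 UMIs Cd9 was at -0.54.

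**Figure D4:**
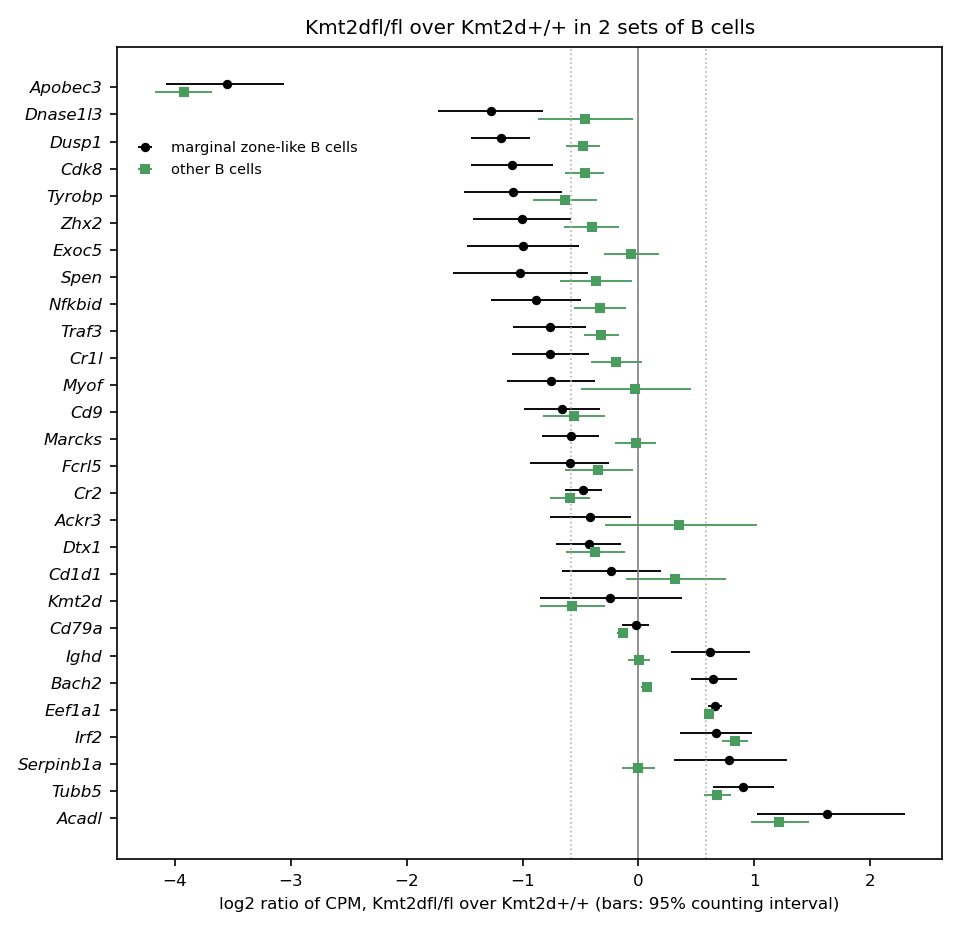
Log2 ratio of CPM, Kmt2dfl/fl over Kmt2d+/+, of 28 genes in marginal zone-like cells (black circles) and other B cells (green squares), with bars for the 95% counting interval and dotted lines at a 1.5-fold difference. Apobec3, Acadl, Eef1a1 and Irf2 lie on the same side in both sets, while Bach2, Ighd, Myof and Marcks lie near 0 in the other B cells.

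Genes that were marked out above by their level in members lay in part on the lower side in fl/fl. Trps1 (-0.89, other B cells -0.67), Zc3h12c (-0.77, other B cells -0.07), Ahr (-0.66, other B cells -0.33) and Il5ra (-0.61, other B cells -0.10) were called lower, Il5ra with 0.45 under the rule on thinned cells. Atf3 (0.25), Rgs10 (-0.38), Dph5 (-0.36), Pik3r4 (-0.50) and Mfhas1 (-0.29) were not called. The fl/fl library had the higher share of members with 2 or 3 Cr2 UMIs, in which Ackr3, Fcrl5 and Cd9 were lower, although the intervals of the shares overlap. The part of this share in the ratios was not tested. With the bands of 2 or 3 and of 4 or more Cr2 UMIs weighted alike in both libraries, the log2 ratios were -0.92 for Trps1, -0.70 for Zc3h12c, -0.65 for Ahr and -0.50 for Il5ra.

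The Notch pathway, which directs the marginal zone fate, had 8 measured genes, of which 0 were higher, 1 lower and 7 neither. Over all measured genes 2.29% were higher and 6.6% lower. The lower gene was Spen, encoding a co-repressor that binds RBPJ, at 80.4 and 39.6 CPM (log2 -1.02, -1.60 to -0.43), beside -0.37 in the other B cells. The receptor gene Notch2 was at 210.0 and 170.1 CPM, Rbpj at 50.9 and 36.0 CPM, Hes1, a target, at 90.2 and 63.4 CPM, and Adam10, the protease that cleaves Notch, at 128 and 93.7 CPM, none of them called. All 8 measured ratios were below 0, with a median of -0.44 (other B cells -0.30), beside 2109 of all 3500 measured genes below 0.

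Positioning genes govern how marginal zone B cells shuttle between the follicle and the blood side. Of 19 measured, 0 were higher, 4 lower and 15 neither (median -0.19, other B cells -0.19), beside 6.6% lower over all measured genes. Cxcr4, the CXCL12 receptor gene, was at 135 and 80.7 CPM (-0.74), Rgs2 at 284 and 164 CPM (-0.80), Rgs1 at 107 and 68.5 CPM (-0.64) and the integrin gene Itgb1 at 87.0 and 56.9 CPM (-0.61). Without the members holding RNA of other blood cells Itgb1 was at -0.31 and Rgs1 at -0.36, both under the 1.5-fold limit, and Rgs2 was at -0.55 after thinning. Rgs1 had 30 of its 65 +/+ UMIs in 1 cell and was at -0.23 without the top cell of each library and at 0.12 under the rule on thinned cells. S1pr1, which draws the cells to the blood side, was at 204 and 241 CPM, and the oxysterol receptor gene Gpr183 at 394 and 490.1 CPM, neither called. S1pr3, a sphingosine 1-phosphate receptor of these cells, was at 39.4 and 32.4 CPM, below the level measured.

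Of 26 measured B cell receptor genes, 0 were higher and 1 lower, Cd81, a tetraspanin gene (246 and 163 CPM, -0.60). Over all measured genes 2.29% were higher and 6.6% lower. The list median was -0.13, beside -0.08 over all measured genes. Below 0 were 20 of the 26 ratios, beside 2109 of all 3500. Cd81 was at -0.51 without the members holding RNA of other blood cells and at -0.13 after thinning, both under the 1.5-fold limit. Cd79a, part of the rule, was at 1464 and 1440 CPM (-0.02). Of the 14 BAFF receptor, CD40 and NF-kB genes, which act in B cell survival, 0 were higher and 3 lower: Nfkbid (171 and 92.3 CPM, -0.89), Traf3, a brake on non-canonical NF-kB (243 and 143 CPM, -0.77), and Nfkbia (182 and 112 CPM, -0.71). Nfkbia had 34 of its 111 +/+ UMIs in 1 cell and was at -0.22 without the members holding RNA of other blood cells and at 0.0552 after thinning, where Nfkbid was at -0.48. Tnfrsf13c, the BAFF receptor gene, was at 161 and 221 CPM and not called. Of 8 complement and Fc receptor genes 2 were lower, Fcrl5 and Cr1l, the gene of a complement regulator next to Cr2 on chromosome 1 (220 and 129.7 CPM, -0.76).

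Of 27 B cell transcription factor genes 1 was higher, Bach2, and 2 were lower, Klf3 (82.0 and 38.2 CPM, -1.10) and Id3 (52.5 and 29.6 CPM, -0.83), the latter with 0.17 in the other B cells. Beside this list and those that follow, 2.29% of all measured genes were higher and 6.6% lower. The 5 measured purinergic genes had 0 higher and 1 lower, P2rx4, an ATP-gated channel gene like P2rx7 (78.8 and 41.1 CPM, -0.94, -1.52 to -0.35), with -0.63 in the other B cells. Of 8 measured histone H3K4 methyltransferase and H3K27 demethylase genes 0 were higher and 1 lower, the demethylase gene Kdm1a (75.5 and 44.7 CPM, -0.76), which acts on H3K4 and was at 0.0506 under the rule on thinned cells. Kmt2c, the closest relative of Kmt2d, was at 192 and 173 CPM and Kdm6a, a partner of both, at 146 and 174 CPM, neither called.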

How the data were processed

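The authors deposited raw UMI counts per gene and barcode for 2 libraries (10x Genomics 3' v3.1, 3 mice pooled in each, per the labels' protocols). They were made with Cell Ranger 7.1.0, per the file headers. The submitters' processing notes also name fastp, Seurat 4.1.1 and the mm10 (GRCm38) build. The filters behind the deposited barcodes are not given in the sources used here, and 7790 and 8634 of them passed the limits of 500 genes and 10% mitochondrial counts. Members and gene lists were chosen with earlier results of these data known.

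Counts were summed over members per library and scaled to CPM, so 1 library is 1 sample. Ratios have exact conditional binomial intervals, CPM exact Poisson intervals and shares exact Clopper-Pearson intervals, and a share of 0 has the limit of 3 counts over the cells. UMIs of a cell are counted molecules, but cells also differ, so the intervals cover counting error only. A gene was measured at 50 CPM or more in either library, and called at a ratio of 1.5 with an interval leaving out no difference. On simulated counts of 3402 genes with 200 changed 2-fold, this rule found 97% of the raised and 92% of the lowered genes. Those counts had counting error alone, without differences between cells or mice, and 2-fold is above the 1.5-fold limit. They do not tell how many calls in these data are false. The 22 gene lists were described by counts and medians. Genes named are the markers given with the cells, Kmt2d, P2rx7 and Foxp3. To these were added the 12 highest and 12 lowest called ratios at 100 CPM or more that kept direction when thinned, without immunoglobulin, T cell receptor, mitochondrial, ribosomal and sex-linked genes. The 15 highest and 12 lowest genes against CD23+ Cr2+ cells, and up to 4 per list, completed them; other list members were named for their role after their values were seen. Scrublet's automatic threshold called 0% and 0.0232% of barcodes, so Otsu's threshold was used, which called 1.49% and 2.19%. Members were kept whatever the call. Python 3.11.15, numpy 2.4.6, scipy 1.17.1, scanpy 1.11.5 and GENCODE M21 coordinates were used.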

Additional observations from a re-analysis of the deposited data

How the results depend on the processing

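The 85 named genes were recomputed under 20 alternatives, 5 of them (members without RNA of other blood cells, with at least 4000 UMIs, with 4 or more Cr2 UMIs, without Vpreb3, or with Cr2 bands weighted alike) chosen after seeing the data. The floors of 20 CPM and 100 CPM and the 2-fold limit leave a gene's ratio as it was, so no sign could turn under them. Genes named for the highest and lowest called ratios had been required to keep direction when thinned, so thinning the members could not turn them. The count includes these fixed values: of 1048 values of the 53 called genes, 1033 kept their sign. The ones that turned were Hbb-bs (-1.12 with at least 3 Cr2 UMIs, -0.94 without Vpreb3 UMIs), Rgs1 (0.0207 at a 5% mitochondrial limit) and S100a6 (0.25 among members with an Fcrl5 or Ackr3 UMI). With the rule on cells thinned to 2000 UMIs, Rgs1 was at 0.12, Kdm1a 0.0506, Il5ra 0.45, Marcks 0.0087, Cmah -0.34, Serpinb1a -0.0501 and Rfx3 -0.0772. With members thinned, Fcrl5 was at 0.50, Top2a -0.60 and Nfkbia 0.0552, and with per-cell means Top2a was at -0.00277. The cause of these turns was not tested. Over the alternatives Apobec3 ranged from -4.13 to -3.43, Acadl from 1.34 to 2.28, Eef1a1 from 0.61 to 0.79 and Myof from -0.97 to -0.47.

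Members' share of B cells was 21.98% in +/+ and 21.5% in fl/fl with at least 1 Cr2 UMI, 10.1% and 8.73% with 3, 10.2% and 10.4% at the 5% mitochondrial limit, and 17.0% and 15.6% with the rule on thinned cells. The number of lower genes was 151 with at least 1 Cr2 UMI, where more cells entered. The number of higher genes was 131 under the median scaling. Higher and lower genes numbered 140 and 410 with a floor of 20 CPM, 25 and 83 with 100 CPM, and 15 and 40 at a 2-fold limit, settings that change the genes tested or the limit itself. Fewer UMIs in +/+ members limit what could be measured. No paired analysis was possible because each genotype is 1 library and they share only replicate number 1.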

Other observations

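Antigen presentation, toll-like receptor and survival lists had no gene called between the libraries in marginal zone-like cells. Of 13 measured MHC class II and antigen presentation genes 0 were called in either direction, with a median log2 ratio of fl/fl over +/+ of -0.17, and H2-Aa reached 2745 CPM in +/+ members and 2440 CPM in fl/fl members. None of the 5 measured toll-like receptor genes was called (median -0.18), among them Cd180, encoding a toll-like receptor homologue of B cells, at 443 and 389.9 CPM. None of 10 survival and death genes was called (median -0.27), with Mcl1 at 361 and 385 CPM and Bcl2 at 245 and 252 CPM. By the same rule of size 8.89% of all measured genes were called. Of 5 measured B-1, memory and age-associated B cell genes 0 were higher and 2 lower, S100a6 (-0.79, and 0.25 among members with an Fcrl5 or Ackr3 UMI) and Ahr (-0.66), with a list median of -0.05.

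Interferon response genes had 0 higher and 2 lower of 9 measured, beside 6.6% lower over all measured genes, Apobec3 (-3.55) and Isg15 (70.6 and 41.1 CPM, -0.78, other B cells 0.06). Ifi27l2a was at 530 and 716 CPM and was not called. Of 23 immediate-early and dissociation stress genes, 0 were higher and 3 lower (Dusp1, Egr1 and Klf6). Klf6 was at 454 and 275 CPM (-0.73, and -0.50 after thinning), while Fos was at 729 and 569 CPM and Jun at 473 and 364 CPM, neither called. Among 11 translation genes 1 was higher, Eef1a1, and the median was 0.29 in members and 0.28 in the other B cells. Top2a, a topoisomerase gene of cycling cells, was at 39.4 and 72.8 CPM (0.89), beside 1.36 in the other B cells and -0.60 in members thinned to 2000 UMIs.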
